A study of Bos taurus with 15 samples.

Results

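RPL31 and C14H8orf59 are 2 of the 31999 rows in a table of gene counts from bovine morulae, the compacted ball of cells that comes before the blastocyst. They were chosen by name because their counts were higher in androgenetic than in ICSI morulae, and both rows were found. C14H8orf59 is the older symbol of RBIS, the ribosomal biogenesis factor, under which it stands in the RefSeq gene table of the assembly ARS-UCD2.0. Both members passed the expression filter and were among the 16375 rows tested.

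The samples were 15 RNA-seq libraries of Bos taurus embryos in 3 groups of 5. Androgenetic morulae were haploid and carried a sperm genome alone (titles beginning TII, replicates 1, 2, 4, 5 and 6). Parthenogenetic morulae were haploid and carried an oocyte genome alone (titles beginning CHX, replicates 1, 2, 3, 5 and 6). ICSI morulae were diploid and came from intracytoplasmic sperm injection, which places a sperm inside the oocyte (replicates 1 to 5). The meaning of the title codes TII and CHX was not looked into, so a treatment behind them is not described here. Apart from these codes, the labels name no treatment, breed, bull or day, and do not say how many embryos went into a library. Nothing says that replicates came from separate embryos or pools, so a p-value here speaks only of library-to-library spread. Each group was made by its own procedure, so ploidy, parental genome and procedure cannot be told apart. In whole embryos more cells and more RNA per cell cannot be told apart either.

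The ribosome is assembled from a large and a small subunit, each made of ribosomal RNA and a set of ribosomal proteins that cells usually make in balanced amounts. RPL31 encodes a protein of the large subunit. RBIS encodes a small nucleolar protein known as a factor in the maturation of the large subunit, and is not part of the finished ribosome. In mammalian embryos ribosome synthesis resumes when the embryonic genome becomes active, which in cattle takes place during the cleavage divisions before the morula.

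Libraries held between 19968077 and 28981601 counts, and between 13564 and 19950 genes with at least 1 count. Androgenetic replicate 6 (13564), ICSI replicate 5 (15286) and parthenogenetic replicate 6 (16154) had the fewest in their groups. The TMM scaling factors, which correct for differences in composition, ran from 0.649 in androgenetic replicate 6 to 1.38 in ICSI replicate 3. Of the embryo markers listed, ARGFX, DUXA and SOX2 had a row under their symbol. ARGFX, an early embryonic homeobox gene, stood between 256 and 3923 CPM (counts per 1000000 counts) in the 15 libraries, DUXA between 35.9 and 6423 CPM, and SOX2 between 0.163 and 8.28 CPM. Markers of cumulus cells and oocytes had no row under their symbols and were not analysed here.

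With TMM scaling, RPL31 levels were separate in androgenetic morulae and mixed between the other 2 groups; by library totals alone, androgenetic replicate 6 no longer stood apart. In androgenetic libraries RPL31 stood at 971, 1774, 971, 1322 and 802 CPM in replicates 1, 2, 4, 5 and 6. In ICSI libraries it stood at 565, 581, 492, 479 and 567 CPM in replicates 1 to 5, which is a narrow band. In parthenogenetic libraries it stood at 462, 760, 398, 351 and 738 CPM in replicates 1, 2, 3, 5 and 6. All 5 androgenetic libraries lay above all 5 ICSI and all 5 parthenogenetic libraries, while the parthenogenetic libraries lay on both sides of the ICSI band, with 2 above it and 3 below.

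RPL31 averaged 537 ± 47.6 CPM (SD, n = 5) in ICSI, 542 ± 194 in parthenogenetic and 1168 ± 388 in androgenetic morulae. Relative to the mean, the spread was 8.87% in ICSI libraries, 33.3% in androgenetic and 35.7% in parthenogenetic libraries. The order of the levels was therefore androgenetic first, with parthenogenetic and ICSI as neighbours whose means differed by less than the spread within either group. The biological coefficient of variation that edgeR fitted for RPL31 was 0.397, against a median of 0.945 over all tested rows, and 1.002% of rows had a lower one. That median takes in rows of every level, and RPL31 was not compared with rows of like level. The low value is therefore not shown to be particular to RPL31.

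C14H8orf59 was also highest on average in androgenetic morulae, with a wider scatter. In androgenetic libraries it stood at 514, 1377, 251, 867 and 1463 CPM in replicates 1, 2, 4, 5 and 6, a 5.82-fold range. In ICSI libraries it stood at 149, 231, 186, 164 and 391 CPM in replicates 1 to 5. In parthenogenetic libraries it stood at 293, 236, 127, 251 and 585 CPM in replicates 1, 2, 3, 5 and 6. Androgenetic replicate 4 fell inside the range of the ICSI libraries, and the other 4 androgenetic libraries lay above all 5 ICSI libraries. Against parthenogenetic libraries 3 of the 5 androgenetic libraries lay above all of the other group.

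C14H8orf59 averaged 224 ± 98.0 CPM (SD, n = 5) in ICSI, 298 ± 171 in parthenogenetic and 895 ± 528 in androgenetic morulae. The order of the levels was the same as for RPL31, and the parthenogenetic and ICSI means again differed by less than the spread within either group. Relative to the mean, the spread was 43.7% in ICSI, 57.5% in parthenogenetic and 59.02% in androgenetic libraries, wider than for RPL31 in each group. The biological coefficient of variation was 0.547, and 14.4% of tested rows had a lower one.

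**Figure D1:**
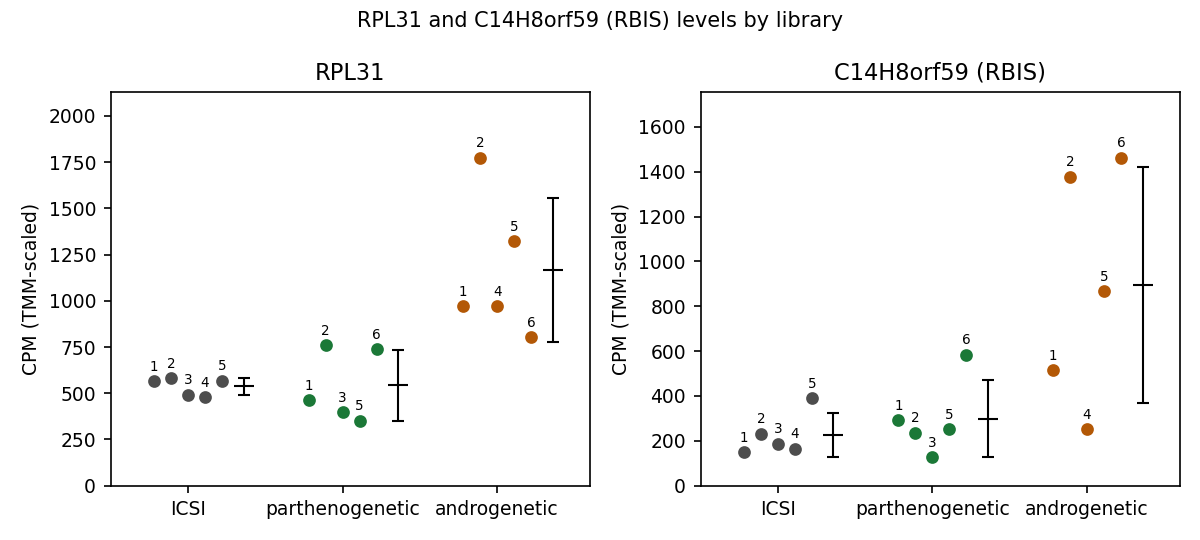
TMM-scaled CPM of RPL31 (left) and C14H8orf59 (right) in each of the 15 libraries, with the replicate number above each point and the mean ± SD of the 5 libraries beside each group. The RPL31 points of androgenetic libraries (802 to 1774 CPM) lie above those of both other groups, while the C14H8orf59 point of androgenetic replicate 4 (251 CPM) lies among the ICSI points.

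The comparison of androgenetic with ICSI morulae chose both members, so its values describe them and are not tested. The fitted log2 fold change was 1.12 ± 0.33 (SE) for RPL31, or 2.18-fold, and 1.996 ± 0.50 for C14H8orf59, or 3.99-fold. Over all tested rows 1.76% were called higher in this comparison at an adjusted p under 0.05, and 3.05% had all 5 androgenetic libraries above all 5 ICSI libraries, as RPL31 did. The share of rows called rested on single libraries: the 288 rows higher in edgeR became 0 without any one of ICSI replicates 1 to 4 or androgenetic replicates 1 or 2, with 2721 to 3344 rows still under 0.05 unadjusted, and DESeq2 on all 15 libraries called 1252 rows higher. They became 9 without androgenetic replicate 5, 152 without parthenogenetic replicate 5, 472 without androgenetic replicate 6, 553 without parthenogenetic replicate 6 and 585 without androgenetic replicate 4.

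Parthenogenetic libraries took no part in the choice, but the comparisons made with them use either the androgenetic or the ICSI libraries of the choosing comparison and are not independent of it. Between androgenetic and parthenogenetic morulae the log2 fold change of RPL31 was 1.11 ± 0.33 (SE, 95% interval 0.40 to 1.82), with an adjusted p of 0.0795 in edgeR's quasi-likelihood test, so it did not pass over all rows although the 5 libraries of each group did not overlap. Groups without overlap in this direction were seen in 1.78% of tested rows, and 0.916% of rows were called higher. Those 150 rows became 7, 12 and 15 without parthenogenetic replicates 1, 3 and 5, and 506 without parthenogenetic replicate 6. They became 57 to 90 without androgenetic replicate 1, 2 or 5 or ICSI replicate 2, 3 or 4, 256 without ICSI replicate 5 and 338 without androgenetic replicate 4. C14H8orf59 had 1.58 ± 0.49 (0.52 to 2.65) and did not pass either (edgeR adjusted p = 0.0909). In DESeq2 both passed, at 1.23 for RPL31 (adjusted p = 0.00581) and 1.71 for C14H8orf59 (adjusted p = 0.0182), where DESeq2 called 6.07% of rows higher. In limma voom, which called 2.17% higher, RPL31 passed at 1.12 (adjusted p = 0.0396). Without parthenogenetic replicate 6 both passed in edgeR as well (adjusted p = 0.0393 and 0.0298), with 2.96% of rows called higher, and without androgenetic replicate 4 C14H8orf59 passed (adjusted p = 0.0341), with 338 rows called higher in place of 150. The members thus passed in settings where more of all rows did, but not in every such setting. Among these, C14H8orf59 did not pass in limma voom (adjusted p = 0.0769). RPL31 did not pass in edgeR without androgenetic replicate 4 (adjusted p = 0.0585).

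Between parthenogenetic and ICSI morulae the log2 fold change of RPL31 was 0.01 ± 0.32 (SE, 95% interval -0.69 to 0.71), and that of C14H8orf59 was 0.41 ± 0.48 (-0.63 to 1.46). Neither passed in edgeR's quasi-likelihood test (adjusted p = 0.99997 for each, unadjusted 0.966 and 0.402). In this comparison edgeR called 0% of rows higher and 0.0733% lower, and DESeq2 and limma voom also called 0 rows higher. Unadjusted, 304 rows were under 0.05 in edgeR. These intervals do not show that the 2 groups are alike. The sign for RPL31 turned under several alternatives, and without parthenogenetic replicate 2 the value was -0.14.

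The androgenetic level of RPL31 rested in part on the scaling. Scaled by library totals alone, RPL31 stood at 520 CPM (95% Wilson interval 511 to 528, counting error only) in androgenetic replicate 6, below the lowest ICSI library, replicate 5, at 532 CPM (522 to 541). The other 4 androgenetic libraries remained above all ICSI libraries, and 20 of 25 pairs of libraries had the androgenetic one higher, in place of 25 of 25. Against parthenogenetic libraries it was 23 of 25 pairs, again in place of 25. With library totals the log2 fold change against ICSI was 0.57 for RPL31 and 1.38 for C14H8orf59, while the median of all tested rows moved from -0.01 to -0.54. Relative to that median RPL31 was higher by 1.13 with TMM factors and by 1.11 with library totals, and C14H8orf59 by 2.003 and 1.92.

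**Figure D2:**
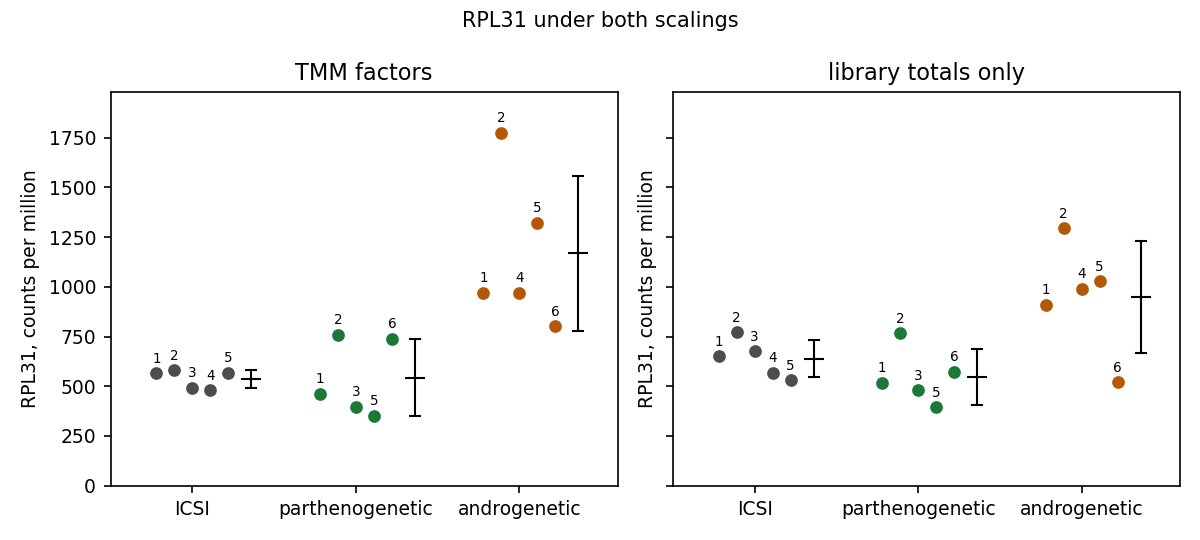
RPL31 CPM in each library, scaled with TMM factors (left) or by library totals alone (right), with replicate numbers and the mean ± SD of 5 libraries. Androgenetic replicate 6 drops from 802 to 520 CPM, under the lowest ICSI point, while the other 4 androgenetic libraries stay above the ICSI libraries.

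The ratio of the 2 members within a library does not depend on scaling. In androgenetic libraries there were 53.0, 77.6, 25.9, 65.6 and 183 counts of C14H8orf59 per 100 counts of RPL31 in replicates 1, 2, 4, 5 and 6. In ICSI libraries there were 26.4 to 68.8, with a median of 37.9, and in parthenogenetic libraries 31.1 to 79.2, with a median of 63.5. Androgenetic libraries held both the lowest ratio of the 15, in replicate 4, and the highest, in replicate 6. Replicate 6 was the only androgenetic library with more counts of C14H8orf59 than of RPL31. The mean log2 ratio did not differ beyond the spread for parthenogenetic minus ICSI (0.38, exact two-sided permutation p = 0.373) or androgenetic minus parthenogenetic (0.37, exact permutation p = 0.579), with an adjusted p of 0.579 for both over the 2 tests. For androgenetic minus ICSI, the choosing comparison, it was 0.75 and was not tested.

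C14H8orf59 tended to be higher where fewer genes were detected. With TMM scaling the library with the fewest genes detected had the highest C14H8orf59 level in each group: androgenetic replicate 6 at 1463 CPM, ICSI replicate 5 at 391 CPM and parthenogenetic replicate 6 at 585 CPM. By library totals this held in the ICSI and parthenogenetic groups, while androgenetic replicate 6, at 949 CPM, lay below replicate 2, at 1004 CPM. In the androgenetic group the library with the most genes detected, replicate 4 with 18633, had the lowest level, at 251 CPM. The same held for parthenogenetic replicate 3 (18899 genes, 127 CPM). Other libraries went against this order. ICSI replicate 1 had the next fewest genes of its group (19196) but the lowest ICSI level, at 149 CPM. Parthenogenetic replicate 2, also next fewest in its group (18111), stood 4th of 5, at 236 CPM. Taken as deviations from the group means over the 15 libraries, log2 CPM of C14H8orf59 and the number of genes detected had a Pearson r of -0.78 (permutation p = 4.30e-04, adjusted 0.00129 over 3 relations) and a Spearman rho of -0.77 (permutation p = 0.00259, adjusted 0.00777). Without androgenetic replicate 6 and ICSI replicate 5, the 2 libraries farthest from the median of genes detected, r was -0.82. Parthenogenetic replicate 6 was kept in that value. With library totals in place of TMM factors r was -0.68 (permutation p = 0.00905, adjusted 0.0181 over 2 relations) and rho -0.67 (permutation p = 0.0114, adjusted 0.0229). The relation was chosen after the values had been seen, and the adjustment over 3 or 2 relations does not allow for that choice. Libraries were permuted within groups, and groups of 5 are too small for a value within each. With genes detected as a covariate the log2 fold change of C14H8orf59 fell from 1.996 to 1.10 against ICSI, where the median of all rows was 0.26, and from 1.58 to 1.02 against parthenogenetic morulae (edgeR adjusted p = 0.164). How many of all tested rows relate as strongly to genes detected was not counted, so the relation is not shown to be particular to C14H8orf59. Whether the number of genes detected follows from embryo state, RNA amount or library quality was not tested.

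For RPL31 the relation did not pass over all libraries, with a Pearson r of -0.13 (permutation p = 0.641, adjusted 0.641) and a Spearman rho of -0.35 (permutation p = 0.179, adjusted 0.186). The value turned on 2 libraries: without androgenetic replicate 6 and ICSI replicate 5 the Pearson r was -0.72. With library totals the sign turned, at an r of 0.45 (permutation p = 0.128, adjusted 0.128) and a rho of 0.10 (permutation p = 0.726, adjusted 0.726). With genes detected as a covariate the log2 fold change of RPL31 against ICSI was 1.04 in place of 1.12, and relative to the median of all rows it was 0.78 in place of 1.13. The members themselves had a Pearson r of 0.41 about the group means (permutation p = 0.211, adjusted 0.316) and a rho of 0.42 (permutation p = 0.186, adjusted 0.186). Without androgenetic replicates 2 and 5 that r was 0.24. These relations were chosen after the values had been seen.

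**Figure D3:**
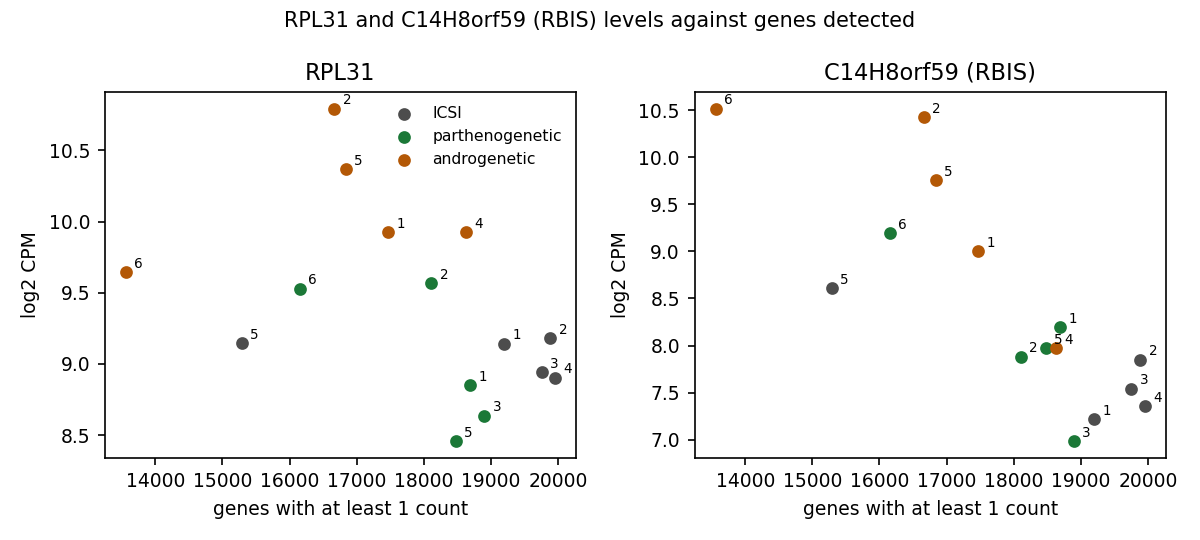
Log2 CPM of RPL31 (left) and C14H8orf59 (right) against the number of genes with at least 1 count, 1 point per library, coloured by group and marked with the replicate number. The C14H8orf59 points fall as genes detected rise (r = -0.78 about the group means), while androgenetic replicate 6 stands apart on the left of both panels at 13564 genes.

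Other ribosome-related genes could be followed in few rows, since most genes of the table stand under Ensembl identifiers without a symbol. Of 54 large subunit protein symbols only RPL31 matched a row, of 35 small subunit protein symbols 0, of 63 symbols of large subunit biogenesis only C14H8orf59, of 64 symbols of small subunit biogenesis only IMP3, and of 88 symbols of mitochondrial ribosomal proteins only MRPL14. Symbols of RNA polymerase I and of small nucleolar particles matched 0 rows. The values of the 2 members therefore say nothing of ribosomal proteins or biogenesis factors as classes.

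MRPL14 encodes a protein of the large subunit of the mitochondrial ribosome, which translates the few proteins encoded in mitochondrial DNA. It stood at 366, 292, 208, 284 and 156 CPM in androgenetic replicates 1, 2, 4, 5 and 6. In ICSI replicates 1 to 5 it stood at 139, 131, 81.3, 131 and 112 CPM, so all 5 androgenetic libraries lay above all 5 ICSI libraries. In parthenogenetic replicates 1, 2, 3, 5 and 6 it stood at 87.8, 148, 114, 88.7 and 228 CPM, and 3 of 5 androgenetic libraries lay above all of these. The log2 fold change against ICSI was 1.14 ± 0.35 (SE), which did not pass (edgeR adjusted p = 0.0753). It passed in DESeq2 (adjusted p = 0.00866), where 7.76% of all rows were called higher. In edgeR it passed without androgenetic replicate 6 (adjusted p = 0.0395), parthenogenetic replicate 6 (0.0439) or the library with fewest genes in each group (0.0153). Those edgeR settings called 2.76%, 3.23% and 5.87% of all rows higher, in place of 1.76%. The edgeR adjusted p was 0.221 with the replicate number as a block and 0.284 with library totals. Against parthenogenetic morulae the log2 fold change was 0.97 ± 0.35 (edgeR adjusted p = 0.135). It passed in DESeq2 at 1.09 (0.0336), and in edgeR without parthenogenetic replicate 6 at 1.25 (0.0401) and without the library with fewest genes in each group at 1.52 (0.00960). Those settings called 6.07%, 2.96% and 6.35% of all rows higher, in place of 0.916%. Over all alternatives the adjusted p against parthenogenetic morulae lay between 0.00960 and 0.297. With library totals, androgenetic replicate 6 fell to 101 CPM, below the lowest ICSI value of 105, as it did for RPL31.

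IMP3, a component of the particle that processes the RNA of the small subunit, did not share that pattern. It averaged 121 ± 24.6 CPM (SD, n = 5) in ICSI, 118 ± 61.6 in parthenogenetic and 124 ± 78.1 in androgenetic morulae. The log2 fold changes were 0.03 ± 0.46 (SE, 95% interval -0.96 to 1.02) for androgenetic minus ICSI, 0.07 ± 0.46 for androgenetic minus parthenogenetic and -0.04 ± 0.46 for parthenogenetic minus ICSI, and none passed (edgeR adjusted p = 0.981, 0.961 and 0.99997). The signs turned under several alternatives, and without androgenetic replicate 4, which had the highest level at 259 CPM, the first was -0.44. IMP3 was lowest in parthenogenetic replicate 6, at 27.6 CPM.

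**Figure D4:**
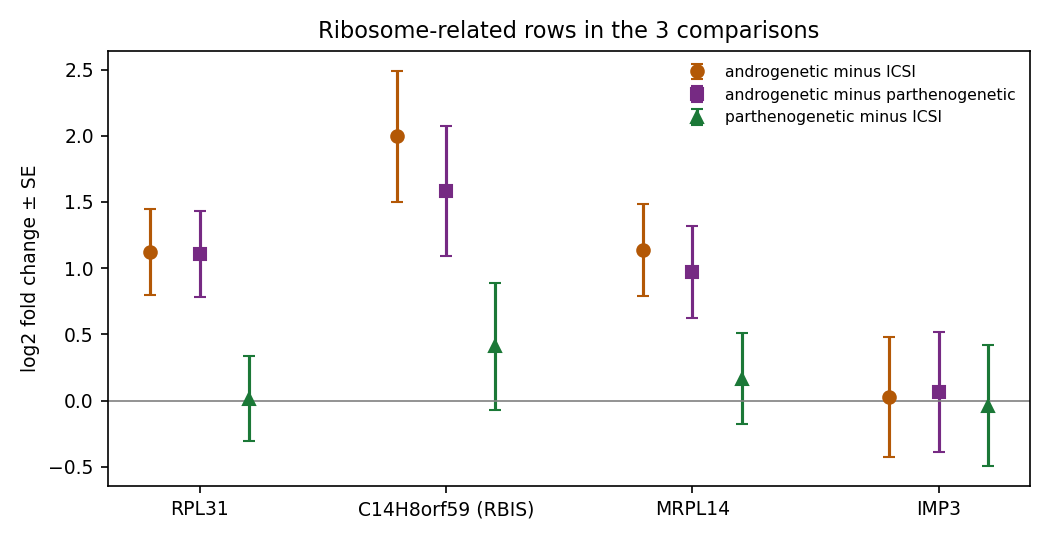
Fitted log2 fold changes ± SE of RPL31, C14H8orf59, MRPL14 and IMP3 in the 3 comparisons of 5 against 5 libraries. RPL31 and MRPL14 lie near 1.1 for androgenetic minus ICSI and C14H8orf59 at 1.996, a comparison that chose RPL31 and C14H8orf59, while parthenogenetic minus ICSI lies within 1 SE of 0 for all 4 genes.

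Among the 609 tested rows with a symbol, the pattern most like that of C14H8orf59 belonged to E2F5, a transcription factor of the E2F family that acts in control of the cell cycle. Over the 15 libraries the Pearson r of log2 CPM was 0.97 (Spearman rho 0.96), between 0.96 and 0.98 when each library was left out in turn, and 0.94 about the group means. In the RefSeq gene order of ARS-UCD2.0, E2F5 is the gene next to RBIS. E2F5 stood at 68.4, 114, 30.6, 84.3 and 177 CPM in androgenetic replicates 1, 2, 4, 5 and 6, so replicate 4 was again lowest and replicate 6 highest. In ICSI libraries it stood at 23.1 to 28.9 CPM in replicates 1 to 4 and at 61.6 CPM in replicate 5. In parthenogenetic libraries it stood between 21.4 and 61.2 CPM, with replicate 3 lowest and replicate 6 highest as for C14H8orf59. Its log2 fold changes were 1.57 ± 0.46 (SE) for androgenetic minus ICSI and 1.30 ± 0.46 for androgenetic minus parthenogenetic, which are descriptions, since the row was picked for its likeness to C14H8orf59. The authors' annotation and strand setting are not given in the sources used here, so whether reads of RBIS were counted in the E2F5 row, or the reverse, was not tested. The neighbour on the other side, the long non-coding RNA LOC112449551, did not share the pattern: it had 0 counts in androgenetic replicate 2, where C14H8orf59 stood at 1377 CPM, and 426 counts in androgenetic replicate 6.

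**Figure D5:**
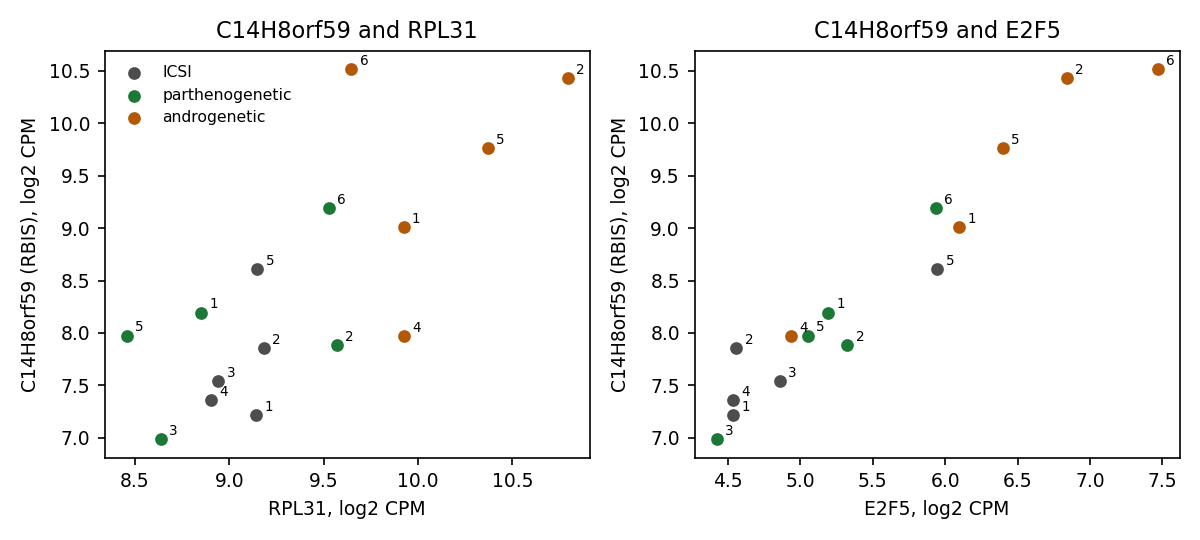
Log2 CPM of C14H8orf59 against RPL31 (left) and against E2F5 (right), 1 point per library, coloured by group and marked with the replicate number. The points lie close to a line for E2F5 (r = 0.97) and scatter more for RPL31, where androgenetic replicates 4 and 6 lie on opposite sides.

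The next rows most like C14H8orf59 were OST4, a subunit of the enzyme that attaches sugar chains to new proteins (r = 0.93), SMIM26 (0.92), TMEM269 (0.90) and ERMAP (0.89). For RPL31 they were TNIK, a kinase linked to WNT signalling (r = 0.89), MRPL14 (0.87), NWD2 (0.87), OST4 (0.86) and TMEM178B (0.86). Only OST4 appears in both sets of 5. About the group means the RPL31 values were lower, between 0.63 for NWD2 and 0.82 for TNIK. The C14H8orf59 values were lower too, between 0.81 for ERMAP and 0.94 for E2F5. Part of the likeness to each member thus lay in the difference between groups that chose it. These correlations are over 15 libraries that share depth and composition, and the rows were picked for their height, so they are descriptions without a test.

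Each member has a near-equal row under an Ensembl identifier. ENSBTAG00000019697 differed from RPL31 by at most 98 counts, or 0.808%, in any library, and ENSBTAG00000032227 had the same count as C14H8orf59 in 9 of 15 libraries and differed by at most 0.363% in the others. MRPL14 likewise had a near-equal row, ENSBTAG00000050249, and IMP3 had none. Such pairs may be 1 gene under 2 names or overlapping genes, which was not checked, and they are no second observation of the members. Ribosomal protein genes such as RPL31 have many near-identical processed pseudogenes in mammalian genomes, so its row is uncertain as a single gene. Depth was not a limit for either member: counts ran from 11234 to 28817 per library for RPL31 and from 3901 to 26999 for C14H8orf59, and the 95% Wilson intervals, which cover counting error only, were at most 1.85% and 3.14% of the value to either side.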

How the data were processed

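Per the labels' protocols, libraries of polyadenylated RNA were prepared with SMART-Seq HT amplification and Nextera XT reagents. Trim Galore, cutadapt, STAR and featureCounts are named in the submitters' processing notes without versions, while build, annotation and strand setting are not given in the sources used here. Raw, unnormalized counts per gene were deposited by the authors.

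All 15 libraries were fitted in edgeR 4.0.16 (R 4.3.3): default expression filter by group, TMM factors, a quasi-likelihood fit with a coefficient for each group, and Benjamini-Hochberg adjustment across all 16375 rows that passed, with calls at an adjusted p under 0.05. The SE is the log2 fold change divided by the square root of F, and 95% intervals use 12 residual degrees of freedom. Log2 CPM used a prior count of 2. Ratios were compared by exact permutation over 252 arrangements (smallest p 0.00794), and relations by 100000 permutations within groups, in scipy 1.17.1. Alternatives used DESeq2 1.42.0 and limma 3.58.1.

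The members and gene lists were chosen with earlier results of these data known. By rule the text names both members, matched rows of the ribosome lists, and for each member the 5 symbol rows with the highest correlation, leaving out rows within 2% or 3 counts of it in every library. The neighbour of C14H8orf59 on the side away from E2F5 was added after values were seen. The RefSeq table of ARS-UCD2.0 served for names and gene order only. No sequences of the members were used here.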

Additional observations from a re-analysis of the deposited data

Results flagged for a closer look

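In groups of 5, a library was set apart when its gap to the nearest other exceeded 0.71 of the group's range. For normally distributed values chance gives this in about 1 of 20 groups, but CPM was used here without log transformation. Many of the rows were also picked for likeness to the members in the same libraries, so that rate cannot be set against the count below. No group of RPL31, C14H8orf59 or MRPL14 met this, and 11 of the 48 groups looked at did. IMP3 stood at 259 CPM in androgenetic replicate 4, with the nearest library at 113 CPM. ICSI replicate 5 was set apart as the highest ICSI library for 6 of the other genes named: E2F5 at 61.6 CPM (nearest 28.9), SMIM26 at 229 CPM, TMEM269 at 273 CPM, ERMAP at 51.2 CPM, NWD2 at 3.79 CPM and DUXA at 634 CPM. Parthenogenetic replicate 6 was set apart as the highest parthenogenetic library for OST4 at 1500 CPM (nearest 596), SMIM26 at 784 CPM and NWD2 at 17.1 CPM. DUXA stood at 6423 CPM in androgenetic replicate 6, with the nearest library at 472 CPM. Except for androgenetic replicate 4, these are the libraries with the fewest genes detected in their groups, and the part of that measure in these levels was not tested.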

How the results depend on the processing

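The fitted log2 fold changes of RPL31 and C14H8orf59 were positive for androgenetic minus ICSI and androgenetic minus parthenogenetic under every alternative run. The members were chosen for the first of these signs in the same libraries, so its persistence is a description and no support. The comparison with parthenogenetic morulae shares the androgenetic libraries and is not independent of that choice. Leaving out each library in turn, the log2 fold changes ran from 0.996 to 1.34 (RPL31) and 1.86 to 2.34 (C14H8orf59) for androgenetic minus ICSI, from 0.97 to 1.31 and 1.38 to 1.97 for androgenetic minus parthenogenetic, and from -0.14 to 0.14 and 0.01 to 0.72 for parthenogenetic minus ICSI. Larger shifts against ICSI were 0.57 for RPL31 and 1.38 for C14H8orf59 with library totals, and 1.10 for C14H8orf59 with genes detected as a covariate. Against ICSI edgeR called 288 rows higher and 173 lower, DESeq2 size factors gave 372 and 139, and library totals 127 and 455. Against parthenogenetic morulae it called 150 higher and 137 lower, in place of which library totals gave 129 and 239, and fitting only those 2 groups 22 and 5. The replicate block and the covariate each gave 0 higher against ICSI, with 2523 and 3037 rows under 0.05 unadjusted, and 44 and 98 higher against parthenogenetic morulae. Androgenetic minus parthenogenetic passed at 1.23 and 1.71 in DESeq2, at 1.12 for RPL31 in limma voom (adjusted p = 0.0396), and at 1.48 and 1.88 in edgeR without androgenetic replicate 6, parthenogenetic replicate 6 and ICSI replicate 5, the libraries with fewest genes (adjusted p = 0.0139 and 0.0201, with 6.35% of rows called higher in place of 0.916%). Over all alternatives its adjusted p lay between 0.00581 and 0.202 for RPL31 and between 0.0182 and 0.198 for C14H8orf59. For parthenogenetic minus ICSI the sign of RPL31 turned in limma voom (-0.062), with the covariate (-0.025), with library totals (-0.23) and without the libraries with fewest genes (-0.12). Library totals, their use for the relations with genes detected, and leaving out the libraries with fewest genes were chosen after seeing the data, as were all alternatives for IMP3 and MRPL14.

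With the replicate number as a block, RPL31 had 1.01, 1.11 and -0.10 and C14H8orf59 had 1.44, 1.57 and -0.12 for androgenetic minus ICSI, androgenetic minus parthenogenetic and parthenogenetic minus ICSI, and no tested call changed. Deviations of same-numbered libraries correlated from -0.05 to 0.09 (0 of 12 pairs over 0.1). Shared origin was not tested. IMP3 turned sign at -0.11 (limma voom) and -0.41 (library totals) against ICSI, at -0.010 (replicate block), -0.26 (library totals) and -0.064 (fewest genes left out) against parthenogenetic morulae, and at 0.11 (replicate block) and 0.19 (fewest genes left out) for parthenogenetic minus ICSI. Leaving out each library, IMP3 ran from -0.44 to 0.24, -0.40 to 0.30 and -0.27 to 0.21 in that order. MRPL14 turned sign for parthenogenetic minus ICSI at -0.10 (library totals) and -0.16 (fewest genes left out), and ran from -0.12 to 0.28 leaving out each library. The cause of these changes was not tested.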
